A study of Mus musculus with 6 samples.

Results

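The small subunit processome is the large nucleolar particle that forms on the nascent ribosomal RNA precursor and turns its leading part into the small ribosomal subunit. Its genes were followed here in CD4+ T lymphocytes of the mouse, the helper cells of the immune system, which sense antigen with the T cell receptor. They were taken as a list of 47 named assembly factors out of the 48440 genes in the table, by matching symbols to Ensembl identifiers in GENCODE release M21. A row was found for 46 of them, and Riok2, an atypical protein kinase of late small subunit precursors, is not analysed here. The members were named by their function and not by a threshold on a measured value, but they were chosen with earlier results of these data known.

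The processome is built around the U3 small nucleolar RNA, which pairs with the precursor and holds apart its regions until they can fold. Blocks of proteins, named UTP-A, UTP-B and the MPP10 complex, join in order, and enzymes then cut, modify and remodel the RNA so that a pre-40S particle leaves the nucleolus and matures in the cytoplasm. T cells that leave rest to grow and divide are known to raise ribosome production.

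Wild-type mice gave the cells, which came from spleen and lymph nodes. All 6 samples shared a first activation for 3 days on plate-bound antibodies against CD3 and CD28, a mimic of antigen with costimulation, and then 5 days of growth in interleukin 2. The stimulated group, with 3 libraries, met both antibodies again for 4 hours before RNA was extracted. The unstimulated group, with 3 libraries, was left without this restimulation. Both groups are therefore previously activated, expanded cells, and neither is naive. The submitters call the 3 of each group biological replicates without saying whether they came from separate mice or cultures, so p-values reflect the spread among these libraries alone, and that spread may be technical.

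Total counts ran from 29897720 to 30252923 per library, so that depth hardly differed, and 3 counts corresponded to 0.0942 to 0.106 CPM. CPM is the read count scaled to a fixed library size after TMM normalization, and RPKM is CPM per kilobase of exon. Both are shares of a library's RNA and do not show the total RNA of a cell. Of 10 T cell identity genes all were detected, and 9 fell with stimulation, with a summed level of 2679 to 2769 CPM in stimulated and 4843 to 5305 CPM in unstimulated libraries. The genes that mark the labelled cell type were thus abundant in both groups. The 2 CD8 genes summed to 20.7 to 25.8 CPM in stimulated and 20.9 to 24.8 CPM in unstimulated libraries. Of 8 B cell genes 7 fell, with sums of 732 to 1281 CPM in stimulated and 1416 to 2869 CPM in unstimulated libraries, most of it Ighm. Markers of the other blood lineages were scarce, apart from 1 gene. Myeloid markers summed to 4.44 to 7.76 CPM in stimulated and 7.16 to 9.57 CPM in unstimulated libraries, with S100a8 at 0, and erythroid markers were at most 1.92 CPM in each library, with Hba-a2 at 0. The NK list reached 58.7 to 112.8 CPM in stimulated and 2.64 to 20.4 CPM in unstimulated libraries, nearly all from Eomes, which T cells also express, while the defining NK receptor gene Ncr1 had 5 reads in all. In bulk RNA, fewer cells of a type and less RNA per cell cannot be told apart, and the part of these other cells in the results below was not tested.

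Restimulation for 4 hours raised nearly the whole small subunit assembly line. Of the 46 genes, all of which passed the filter on low counts, 45 rose, against 38.4% of the 13314 tested genes (edgeR quasi-likelihood test, Benjamini-Hochberg adjustment over all tested genes, threshold 0.05). The exception was Ngdn, which did not pass the test, and 39.1% of all tested genes fell. The median log2 fold change of the 46 genes, stimulated over unstimulated, was 2.54, against -0.04 over all tested genes. A change beyond 2-fold passed the test for 41 genes, against 17.4% of all tested genes rising so far. The estimate was at least 4-fold for 30 genes, against 8.89% of all tested genes, and at least 8-fold for 10, against 3.7%. Among all tested genes, 33 of the 46 lay above the 90th percentile of change and 22 above the 95th.

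Read as a share of each library, the 46 genes held 1.01, 1.04 and 0.989% of all counts in the stimulated libraries, and 0.230, 0.209 and 0.208% in the unstimulated ones. Exact binomial 95% intervals, which cover counting error only, were 1.01 to 1.02%, 1.04 to 1.05% and 0.986 to 0.993% in the stimulated libraries and 0.228 to 0.232%, 0.208 to 0.211% and 0.206 to 0.210% in the unstimulated ones. Summed over the list, the level was 10655.5 ± 394 CPM in stimulated cells and 2057 ± 137 CPM in unstimulated cells (SD, n = 3 each). In 45 of 46 genes every stimulated library was above every unstimulated one, against 39.4% of all tested genes.

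**Figure D1:**
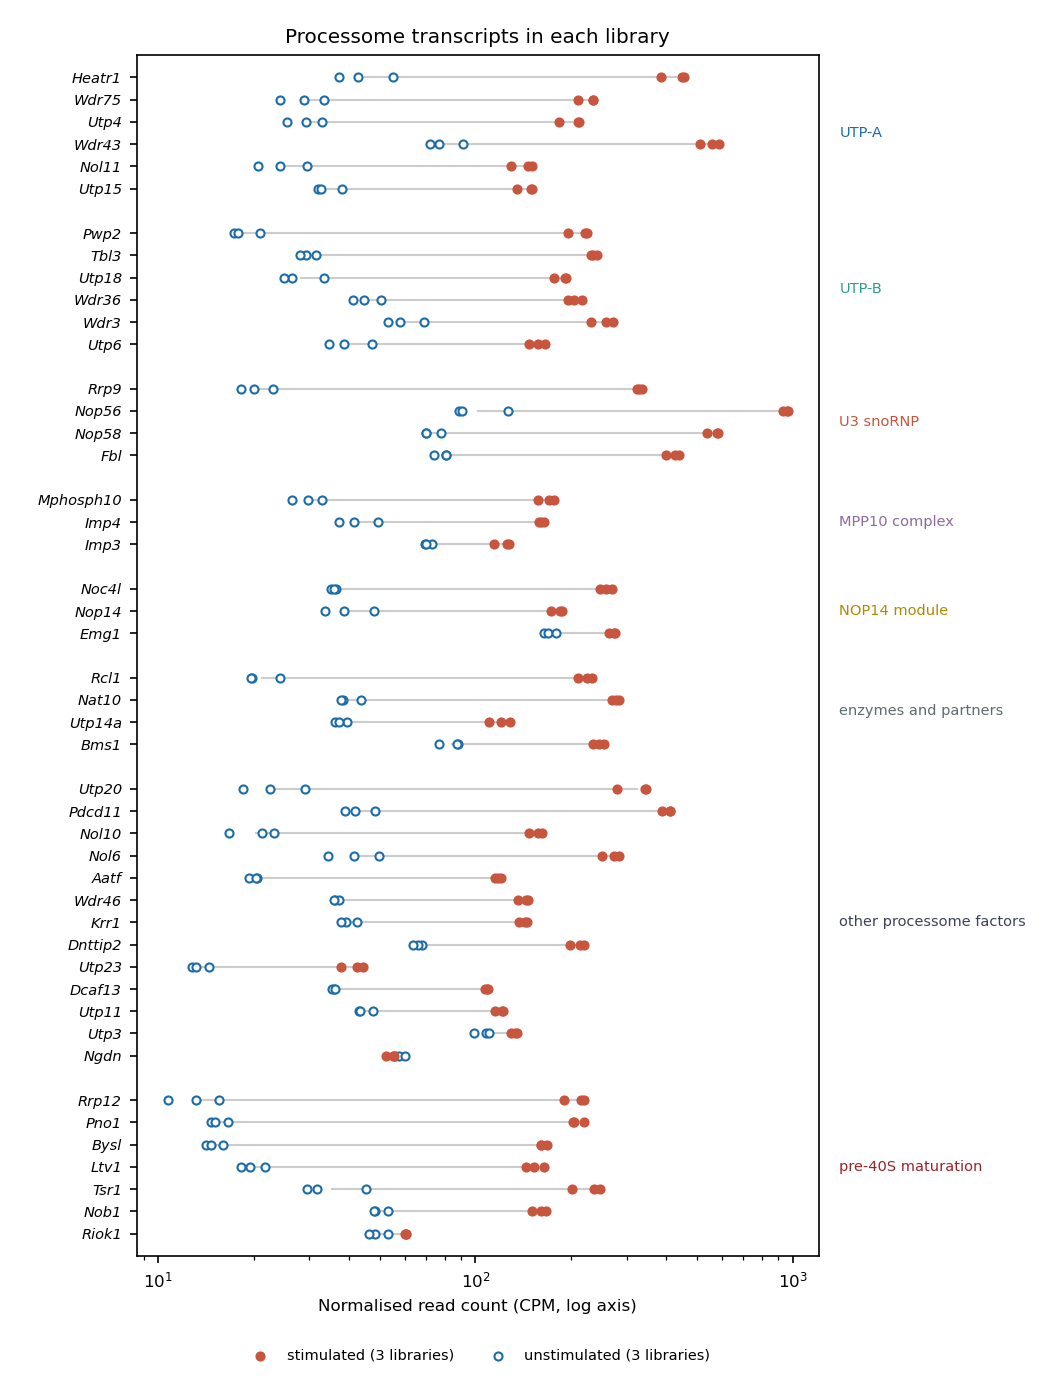
Normalised read count (CPM, log axis) of each of the 46 processome transcripts in the 3 stimulated libraries (filled red) and the 3 unstimulated libraries (open blue), grouped by complex; grey lines join the group means. The 2 groups are apart for every gene except Ngdn, where they lie side by side, and the distance is short for Riok1, Utp3, Emg1 and Imp3.

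The U3 snoRNP is the RNA-protein particle at the centre of the processome. All 4 of its genes among the 46 rose, with a median log2 fold change of 3.09. A further protein of it, Snu13, stood in the list of other processome factors and rose by 2.38 ± 0.07 (SE). Rrp9, the protein that binds U3 and no other box C/D RNA, had 322.9, 336.1 and 328.7 CPM in stimulated libraries, against 23.1, 18.3 and 20.1 CPM in unstimulated ones (chr9:106475963-106485424, plus strand, GRCm38). The lowest stimulated library stood far above the highest unstimulated one. Its log2 fold change of 4.01 ± 0.10 (SE), 16.1-fold, was the largest of the 46 genes (edgeR adjusted p = 5.2e-09).

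Nop56 and Nop58 are the paired scaffold proteins of every box C/D particle, and Fbl is its methyltransferase, which modifies the ribose of target RNA. Nop56 had 960.3, 967.4 and 934.8 CPM in stimulated libraries, against 126.4, 89.0 and 90.9 CPM in unstimulated ones, a log2 fold change of 3.22 ± 0.14 (SE). Nop58 had 576.3, 581.0 and 536.7 CPM in stimulated libraries, against 78.2, 69.9 and 69.8 CPM in unstimulated ones, a log2 fold change of 2.96 ± 0.08 (SE). Fbl had 400.1, 426.9 and 438.7 CPM in stimulated libraries, against 80.7, 73.9 and 80.7 CPM in unstimulated ones, a log2 fold change of 2.43 ± 0.07 (SE). No library of one group reached the other in any of these genes, and the adjusted p of the 4 was at most 1.2e-07 (edgeR). Nop56 also had the highest level per length of all 46 genes in stimulated cells, 232.8 ± 4.17 RPKM, against 24.9 ± 5.14 RPKM in unstimulated cells (SD, n = 3 each), with the first unstimulated library well above the other two. The annotated genes of the U3 RNA itself, under 10 identifiers, had no read in any library, and 14 small nucleolar RNA genes inside Nop56, Nop58, Wdr43 and Tsr1 had 4 reads in stimulated and 0 in unstimulated libraries together, so these libraries give no levels for the RNA side of the particle.

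UTP-A is the block that binds the start of the precursor first and that, in yeast and human cells, has been tied to transcription of the ribosomal RNA genes. Its 6 genes all rose past 2-fold, with a median log2 fold change of 2.79. Heatr1, a very long helical repeat protein, led with 456.1, 446.8 and 383.6 CPM in stimulated libraries, against 55.1, 42.6 and 37.2 CPM in unstimulated ones (chr13:12395027-12440289, plus strand), a log2 fold change of 3.25 ± 0.15 (SE). Utp15, a WD-repeat protein, moved least with 150.6, 149.8 and 135.3 CPM in stimulated libraries, against 37.9, 32.0 and 32.7 CPM in unstimulated ones, a log2 fold change of 2.09 ± 0.09 (SE). Even this smallest change of the block kept the groups far apart. Between them were the WD-repeat subunits Wdr75 at 2.98, Utp4 at 2.79 and Wdr43 at 2.78, and Nol11, a metazoan subunit, at 2.52.

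UTP-B follows UTP-A on the precursor and contacts U3. Its 6 genes, too, all rose past 2-fold, with a median log2 fold change of 2.46. Pwp2 had 224.2, 221.2 and 196.1 CPM in stimulated libraries, against 20.9, 17.4 and 17.8 CPM in unstimulated ones (chr10:78170909-78185149, minus strand), a log2 fold change of 3.52 ± 0.10 (SE). Utp6 had 166.2, 157.8 and 148.0 CPM in stimulated libraries, against 47.1, 38.6 and 34.5 CPM in unstimulated ones, a log2 fold change of 1.97 ± 0.11 (SE). These mark the upper and lower end of the block, without overlap of the groups in either. The other WD-repeat subunits were Tbl3 at 2.99, Utp18 at 2.74, Wdr36 at 2.18 and Wdr3 at 2.08.

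The MPP10 complex helps U3 pair with the precursor, and its 3 genes rose unequally. Its scaffold Mphosph10 had 176.5, 170.5 and 157.4 CPM in stimulated libraries, against 32.9, 26.5 and 29.7 CPM in unstimulated ones, a log2 fold change of 2.50 ± 0.09 (SE). Imp3, a single-exon gene at chr9:56937475-56938398 (plus strand), had 114.3, 127.5 and 125.5 CPM in stimulated libraries, against 69.4, 72.8 and 69.8 CPM in unstimulated ones, a log2 fold change of 0.79 ± 0.07 (SE, edgeR adjusted p = 5.4e-06). The groups were apart for both genes, but for Imp3 the distance was small and a change beyond 2-fold did not pass the test. Imp4 lay between, at 1.92. Imp3 stood highest and Imp4 lowest per length in each library. By exon length Imp3 was 6.58 to 7.32 times Imp4 in stimulated libraries and 13.1 to 17.4 times in unstimulated ones. By the longest transcript it was 4.49 to 4.99 times Imp4 in stimulated libraries and 8.92 to 11.9 times in unstimulated ones. Without division by length, Imp4 averaged 161.5 CPM in stimulated cells, above Imp3, and 42.6 CPM in unstimulated cells, below it.

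In the NOP14 module, which joins the particle at the platform and head of the future subunit, the order of levels per length turned. Noc4l, the partner of Nop14, had 258.1, 270.1 and 247.6 CPM in stimulated libraries, against 35.0, 36.5 and 35.9 CPM in unstimulated ones, a log2 fold change of 2.85 ± 0.07 (SE). Emg1, which methylates a modified uridine of the small subunit RNA, had 264.0, 272.7 and 276.2 CPM in stimulated libraries, against 165.1, 169.3 and 179.9 CPM in unstimulated ones (chr6:124704085-124712178, minus strand), a log2 fold change of 0.66 ± 0.06 (SE, edgeR adjusted p = 1.1e-05). Both genes separated the groups, Noc4l widely and Emg1 by less than 2-fold. Per length, Noc4l was the highest and Emg1 the lowest of the module in each stimulated library, 1.60 to 1.77 times apart, while Emg1 was the highest in each unstimulated library, 2.60 to 3.16 times above the lowest. In CPM Emg1 was above Noc4l in each library of both groups, so the turn appears only after division by length. Nop14 rose by 2.18 on the log2 scale.

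Of the enzymes and their partners, all 4 rose past 2-fold. Rcl1, a cyclase-like protein that works with Bms1, had 211.5, 232.6 and 225.4 CPM in stimulated libraries, against 24.3, 19.7 and 19.7 CPM in unstimulated ones (chr19:29101375-29143929, plus strand), a log2 fold change of 3.39 ± 0.10 (SE). Bms1 itself, a GTPase, had 254.8, 246.1 and 235.1 CPM in stimulated libraries, against 88.4, 87.3 and 76.6 CPM in unstimulated ones, a log2 fold change of 1.54 ± 0.08 (SE). The 95% intervals of the 2 changes, 3.16 to 3.62 for Rcl1 and 1.37 to 1.72 for Bms1, did not meet. Per length, Rcl1 stood above Bms1 in stimulated cells (118.1 ± 5.68 and 50.5 ± 2.04 RPKM) and below it in unstimulated cells (11.2 ± 1.39 and 17.3 ± 1.34 RPKM; SD, n = 3).

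Nat10, which acetylates cytidines in the small subunit RNA, rose by 2.80 on the log2 scale. Utp14a, which in yeast activates the helicase that takes U3 off the precursor, had 128.8, 120.2 and 110.4 CPM in stimulated libraries, against 39.3, 36.2 and 37.2 CPM in unstimulated ones, a log2 fold change of 1.67 ± 0.08 (SE). Its groups were well apart. Its autosomal paralog Utp14b had 22.9, 24.3 and 28.1 CPM in stimulated libraries, against 9.48, 8.06 and 8.23 CPM in unstimulated ones, a log2 fold change of 1.55 ± 0.11 (SE), and the difference between the changes of the paralogs was not tested. The mammalian helicase of that step, Dhx37, rose by 2.87. Fbll1, the paralog of Fbl, had 1 read in all 6 libraries.

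Of the 13 other processome proteins 12 rose, 11 of them past 2-fold, with a median log2 fold change of 1.84 and a range of -0.09 to 3.79. Utp20, a very long scaffold protein, had 342.5, 344.6 and 280.6 CPM in stimulated libraries, against 29.0, 22.6 and 18.6 CPM in unstimulated ones (chr10:88746607-88826804, minus strand), a log2 fold change of 3.79 ± 0.17 (SE). It had the lowest level per length of the 46 genes in unstimulated cells, 2.29 ± 0.52 RPKM (SD, n = 3), and the third library of each group was its lowest.

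Ngdn had 55.5, 52.2 and 55.2 CPM in stimulated libraries, against 55.6, 57.5 and 60.2 CPM in unstimulated ones (chr14:55015454-55024137, plus strand). The stimulated libraries were all below the unstimulated ones, but the nearest libraries of both groups almost met. The log2 fold change was -0.09 ± 0.07 (SE) with a 95% interval of -0.24 to 0.06 and an edgeR adjusted p of 0.235, and with library size alone as the scaling it passed the test as a fall. In human cells Ngdn forms a complex with Aatf and Nol10, and those partners rose by 2.56 and 2.93 on the log2 scale, outside the interval of Ngdn. Utp3, which belongs with Ngdn to the protein family named after yeast Sas10, averaged 132.7 ± 3.13 CPM in stimulated cells and 105.9 ± 5.91 CPM in unstimulated cells (SD, n = 3 each), a log2 fold change of 0.33 ± 0.07 (SE, edgeR adjusted p = 0.0018).

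The remaining members of this group rose past 2-fold. Pdcd11, a long RNA-binding protein needed for both subunits, was at 3.23. Nol6, a counterpart of yeast Utp22, was at 2.69, and the WD-repeat protein Wdr46 was at 1.97. The KH-domain protein Krr1 was at 1.84. Dnttip2, a counterpart of yeast Fcf2, was at 1.67. Utp23, a PIN-domain-like protein, was at 1.62. Dcaf13, which also serves as a ubiquitin ligase adaptor, was at 1.60, and Utp11 was at 1.42.

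**Figure D2:**
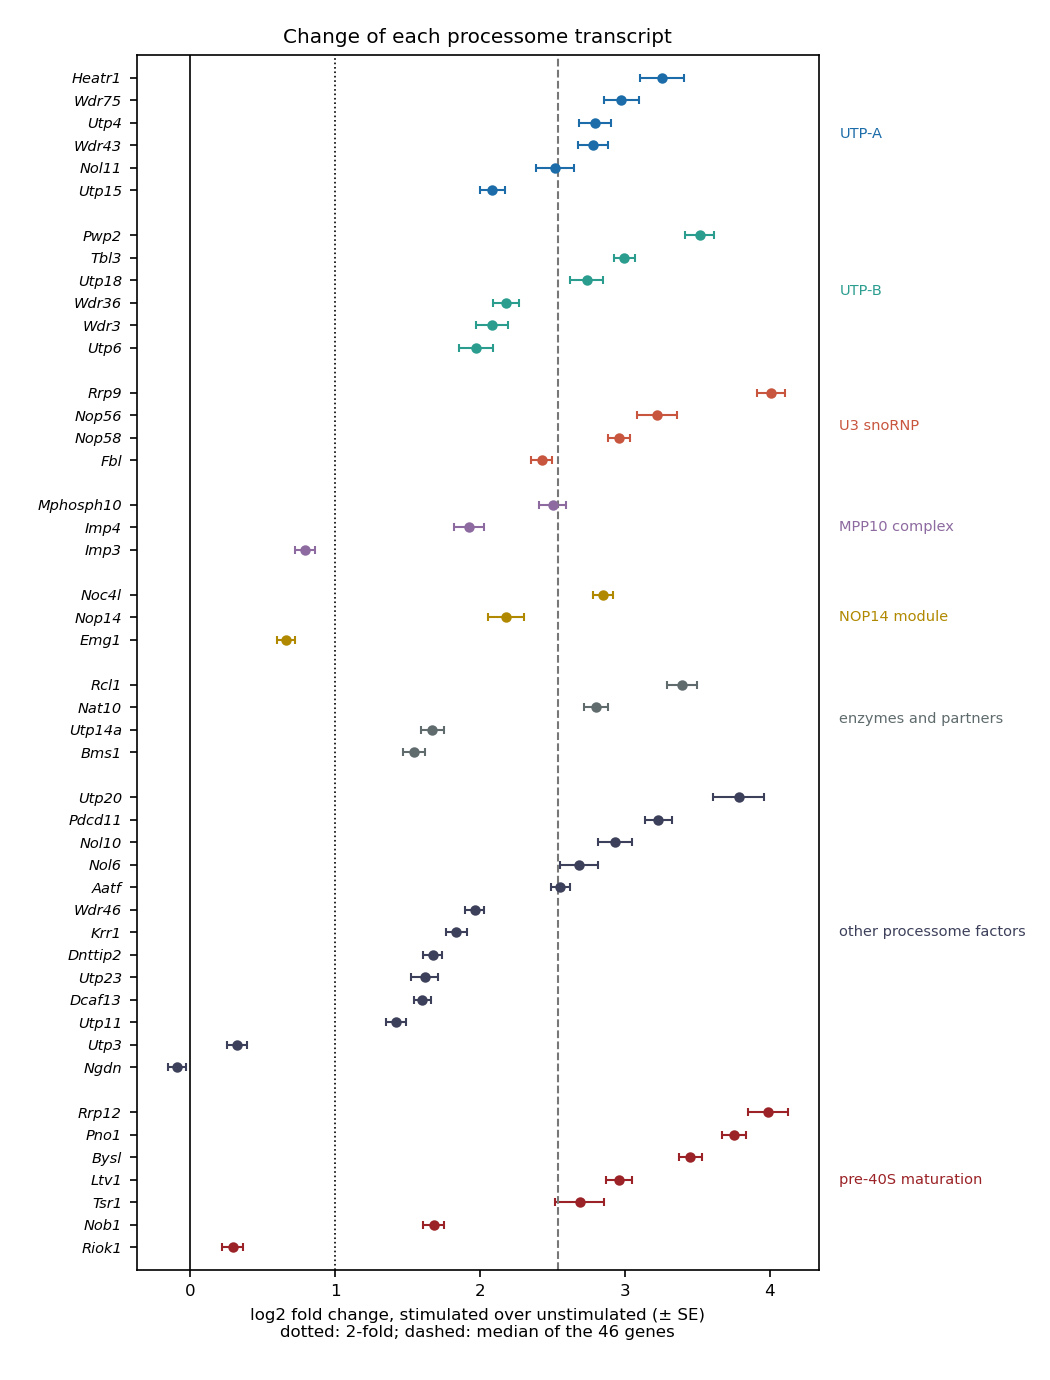
Log2 fold change (stimulated over unstimulated, ± SE, 3 libraries each) of each of the 46 transcripts by complex; the solid line marks no change, the dotted line 2-fold and the dashed line the median of the 46 genes, 2.54. Imp3, Emg1, Utp3 and Riok1 lie between no change and 2-fold, Ngdn lies at no change, and the other 41 lie between 1.42 and 4.01.

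Among the members that carry the pre-40S particle out of the nucleolus and finish it, 7 of 7 measured genes rose. Their median log2 fold change was 2.96. Rrp12, a helical repeat protein linked to export, had 214.7, 220.6 and 190.7 CPM in stimulated libraries, against 15.6, 10.7 and 13.2 CPM in unstimulated ones (chr19:41862851-41896173, minus strand), a log2 fold change of 3.99 ± 0.14 (SE). Bysl, which binds the nuclear pre-40S particle, had 161.0, 168.7 and 160.8 CPM in stimulated libraries, against 16.0, 14.1 and 14.6 CPM in unstimulated ones, a log2 fold change of 3.45 ± 0.08 (SE). For both genes the stimulated libraries were more than 8-fold higher on average, and the groups did not come near each other.

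Nob1, the endonuclease that makes the final cut at the end of the small subunit RNA, had 150.8, 160.8 and 167.1 CPM in stimulated libraries, against 53.1, 48.4 and 47.9 CPM in unstimulated ones, a log2 fold change of 1.68 ± 0.07 (SE). Its partner Pno1 rose further, by 3.75 ± 0.08 (SE) on the log2 scale, with the lowest adjusted p of the list, 4.7e-09 (edgeR). Per length, Pno1 was above Nob1 in stimulated cells (121.8 ± 5.27 and 45.8 ± 2.35 RPKM) and below it in unstimulated cells (9.02 ± 0.58 and 14.3 ± 0.82 RPKM; SD, n = 3). Ltv1, an assembly factor of the subunit's head, was at 2.96, and Tsr1, a GTPase-like factor, was at 2.69.

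Riok1, an atypical kinase of late cytoplasmic particles, had 60.5, 60.4 and 60.1 CPM in stimulated libraries, against 53.0, 48.4 and 46.3 CPM in unstimulated ones (chr13:38036995-38061433, plus strand). The stimulated libraries were nearly equal and all above the unstimulated ones. The log2 fold change was 0.29 ± 0.07 (SE, edgeR adjusted p = 0.0041), the highest adjusted p among the 45 genes that rose, and with library size alone as the scaling it was 0.15 with an adjusted p of 0.065 and did not pass.

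The size of the change left a gap within the list. Ngdn, Riok1, Utp3, Emg1 and Imp3 changed by at most 1.73-fold, whereas the smallest of the other 41 changes, that of Utp11, was 2.68-fold. Among those 41 the lowest stimulated library was at least 2.44 times the highest unstimulated one. Imp3, Utp3, Ngdn and Emg1, but not Riok1, had the 4 highest levels per length of the list in unstimulated cells, at 76.5 ± 1.99, 65.0 ± 3.63, 39.0 ± 1.55 and 37.0 ± 1.65 RPKM (SD, n = 3), ahead of Nop56 at 24.9 ± 5.14 RPKM. With the longest transcript in place of all exons as the length, these same genes again took ranks 1 to 4 in unstimulated cells. In stimulated cells Imp3 ranked 2, Utp3 9, Emg1 15 and Ngdn 34 among the 46 genes. Riok1 stood at rank 37 in unstimulated cells by exon length and at rank 11 by the longest transcript, so its place in the order depends on the length used.

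With all exons as the length, the middle of the list, but not its full span, was narrower in stimulated cells. The median gene was at 49.8 ± 1.70 RPKM in stimulated cells and 7.95 ± 0.93 RPKM in unstimulated cells (SD, n = 3 each), and the upper quartile was 1.79 ± 0.03 times the lower in stimulated cells and 2.48 ± 0.18 times in unstimulated cells, with no overlap between libraries of the groups. The highest member was 36.6, 37.0 and 35.9 times the lowest in stimulated libraries, against 26.4, 35.6 and 41.5 times in unstimulated ones, so these full spans overlapped. By the longest transcript, the ends of the list were Nop56 at 263.1 and Utp23 at 14.2 RPKM in stimulated cells (means). In unstimulated cells they were Imp3 at 76.5 and Utp20 at 2.65 RPKM, a wider span. The comparison of full spans therefore depends on the length used. All 46 genes lay above the median level of the tested genes in each stimulated library, against 40, 36 and 33 in the unstimulated libraries. The order of levels was partly kept, with a Spearman correlation of 0.61 between stimulated and unstimulated RPKM across the 46 genes, which share libraries and gene lengths. The correlation of the unstimulated level with the log2 fold change was -0.42 across the same genes. The unstimulated level enters the fold change, and genes are not independent replicates.

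**Figure D3:**
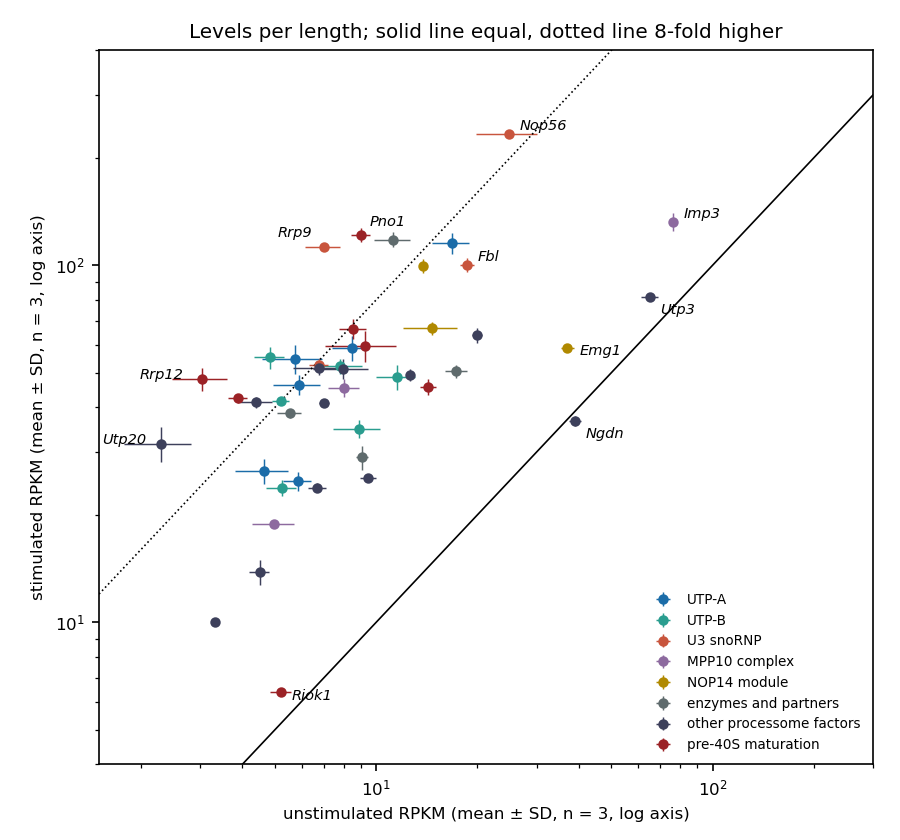
Level per length of the 46 transcripts in stimulated cells (vertical) against unstimulated cells (horizontal), both in RPKM on log axes with mean ± SD of 3 libraries, coloured by complex. Rrp9, Pno1, Rrp12 and Utp20 are among the 10 genes above the dotted line of 8-fold, and Imp3, Utp3, Emg1, Riok1 and Ngdn lie near the solid line of equal levels.

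Within complexes the spread of levels did not move in one way. The highest subunit of UTP-A, Wdr43, was 4.55 to 4.77 times the lowest in stimulated libraries and 3.48 to 3.92 times in unstimulated ones. The U3 snoRNP, without Snu13, spanned 4.37 to 4.57 times in stimulated and 3.42 to 4.24 times in unstimulated libraries. UTP-B spanned 2.24 to 2.45 times in stimulated and 2.21 to 2.56 times in unstimulated libraries. Only the MPP10 complex and the NOP14 module, each holding one of the small changes, had a narrower span in the stimulated libraries. With the longest transcript as the length, UTP-B also had a narrower span in stimulated libraries, 1.52 to 1.59 times against 2.89 to 3.23 times in unstimulated ones, and the spans of the U3 snoRNP overlapped between the groups.

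Libraries of a group differed together over the list. The third stimulated library was the lowest of its group for 34 of the 46 genes, and the first unstimulated library was the highest of its group for 34. Such counts were not made over all tested genes, so this cannot be called particular to the list. Coefficients of variation ran from 0.319 to 11.3% in stimulated and from 1.11 to 23.8% in unstimulated libraries. The difference of library 1 from library 3 of a group was widest for Utp20, at 0.29 in stimulated and 0.65 in unstimulated cells on the log2 scale, followed by Tsr1 and Heatr1. This difference rose with transcript length across the 46 genes with a Spearman correlation of 0.35 in stimulated and 0.34 in unstimulated cells, and across 13286 tested genes with one of 0.28 in stimulated and 0.37 in unstimulated cells. Its part in the fold changes was not tested. Fits that left out any 1 library, which do not address a trend with length, gave 45 genes rising and 41 past 2-fold.

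Related lists show where the members stood in the wider pathway. Of 25 other processome factors tested, 24 rose and 1 fell, with a median log2 fold change of 1.55. Nolc1, a nucleolar phosphoprotein that binds small nucleolar particles, rose by 3.96 ± 0.10 (SE), and the helicase Ddx52 fell by 0.17 ± 0.07 (SE, edgeR adjusted p = 0.037), which did not pass with RLE normalization. Of 14 other pre-40S factors 10 rose, 2 fell and 2 did not pass, with a median of 1.30. The methyltransferase Dimt1 rose by 2.94 ± 0.10 (SE) and Nop53 fell by 0.58 ± 0.06 (SE). Nop53 also stands in the large subunit list, so this list is not confined to small subunit factors. The other fall was that of Riok3, by 0.38 ± 0.07 (SE). The casein kinase genes of the UTP-C block rose in 3 of 3, or 2 of 3 with library size alone, by at most 0.73 ± 0.06 (SE) for Csnk2a1 and by 0.31 ± 0.08 (SE) for Csnk2b. Of 9 genes that assemble box C/D particles 8 rose and 1 fell, with a median of 1.51, from Znhit6 at 3.72 ± 0.11 (SE) to Pih1d1, a chaperone adaptor, which fell by 0.63 ± 0.09 (SE).

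The polymerase that makes the precursor and the assembly line of the other subunit also mostly rose. Of 20 genes of RNA polymerase I and its factors 17 rose, 2 fell and 1 did not pass, with a median of 1.61. Its second largest subunit Polr1b rose by 4.30 ± 0.17 (SE), and the terminator protein Ttf1 fell by 0.67 ± 0.09 (SE). Of 55 large subunit assembly factors 53 rose, 1 fell and 1 did not pass, with a median of 2.39, led by Ppan at 4.06 ± 0.08 (SE). The genes of the ribosomal proteins of the small subunit, which the processome assembles, mostly did not pass the test. Of 34 tested, 7 rose, 1 fell and 26 did not pass, with a median log2 fold change of -0.004, and their direction depends on the scaling, since 3 rose and 17 fell with library size alone, where the median of all tested genes was -0.18, and 9 rose with RLE normalization. The largest rise was that of Rps27l, a p53-responsive paralog, at 1.21 ± 0.11 (SE), and the fall was that of Rps27, by 0.14 ± 0.05 (SE, edgeR adjusted p = 0.031), which did not pass with RLE normalization. Differences between these lists were not tested.

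**Figure D4:**
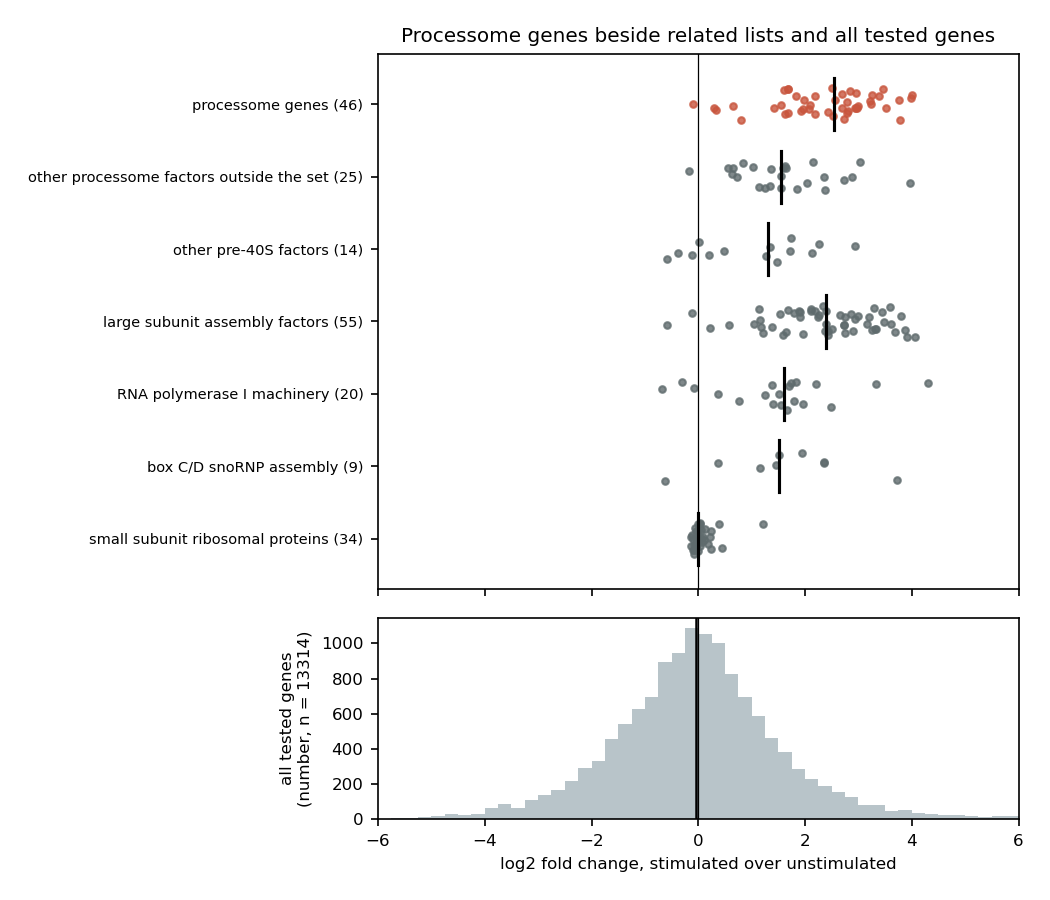
Log2 fold change (stimulated over unstimulated) of the 46 processome genes and of related gene lists, 1 point per gene with the median as a bar (upper panel), and the histogram of all 13314 tested genes with its median (lower panel, axis limited to the range shown). The processome genes centre on 2.54 and the large subunit factors on 2.39, while the small subunit ribosomal proteins and all tested genes centre near 0, at -0.14 and -0.18 with library size alone as the scaling.

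The neighbourhood of the genes limits some of the values. The strand setting of the counting is not given in the sources used here, and 17 of the 46 genes overlap exons of a gene on the opposite strand. The longest overlaps are 2122 bases between Tbl3 and Noxo1, which had 2 reads in stimulated and 20 in unstimulated libraries, and 1240 bases between Tsr1 and Srr, which had 620 reads in stimulated and 794 in unstimulated libraries. Both held far fewer reads than the member they overlap. Over the 18 overlapping neighbours, 0 held more reads than the member in stimulated libraries together, but 6 did in unstimulated ones, namely Ccnd3 (beside Bysl), Lgals8 (Heatr1), Glipr1 (Krr1), Idh3b (Nop56), Wdr92 (Pno1) and Parp3 (Rrp9). Ccnd3, which shares 361 bases with Bysl and went the other way with a log2 fold change of -1.90, had 4811 reads in stimulated and 19824 in unstimulated libraries, against 14025 and 1417 for Bysl. The 31-base windows of each member's longest transcript were searched on both strands of other genes' transcripts. Matches were found for 38.2% of windows for Tbl3, 35.7% for Tsr1, 24.1% for Nop56, 19.9% for Wdr3, 19.5% for Utp23, 17.0% for Imp3 and 16.9% for Utp14a. Much of this is the overlap described above, since Noxo1 alone matched 26.6% for Tbl3, Srr 30.6% for Tsr1, Spag17 19.9% for Wdr3 and 9530027J09Rik 16.9% for Utp14a. Counts of these genes are uncertain to that extent where the counting could split or drop reads. For 14 of the 46 genes no window recurs.

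Some processome genes start back to back with another gene. A protein-coding gene on the opposite strand starts within 1000 bases for 12 of the 46 (26.1%), against 1267 of 11685 tested protein-coding genes (10.8%). Of the 12 partners tested, 7 rose, 4 fell and 1 did not pass, where 38.4% of all tested genes rose and 39.1% fell. Mphosph10 rose by 2.50 while Mcee, a mitochondrial epimerase gene, fell by 1.64, Nop14 rose by 2.18 while the receptor kinase gene Grk4 fell by 2.05, and Bysl rose by 3.45 while Med20, a Mediator subunit gene, fell by 0.43. Other pairs rose together, such as Noc4l at 2.85 with the helicase gene Ddx51 at 2.19. The mitochondrial genes Phb2, at 1.82 beside Emg1 at 0.66, and Slc25a32, at 2.26 beside Dcaf13 at 1.60, had the higher change of their pair.

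Promoter sequence was read for the 37 members that have a window in the RefSeq table for GRCm38.p6, from 250 bases before to 50 bases after the annotated start. The members without one are Nol6, Utp11, Fbl, Utp6, Dcaf13, Utp23, Tbl3, Wdr36 and Rrp12. The canonical E-box CACGTG, which reads the same on both strands and is bound by MYC with MAX and by other factors of that class, stood in 11 of the 37 windows (29.7%), against 9.92% of 12292 windows of other tested genes and 7.15% of all 32851 windows. The windows are shown because the E-box lies close to the start in most of them, its first base 12 to 43 bases away in 9 of the 11. Its position in the windows of other tested genes was not examined, so this closeness cannot be called particular to the members. Of all 11, 5 begin before and 6 after the start. Each line gives 30 bases on the sense strand of the gene, 5′ to 3′, with the E-box in capitals.
Utp20 (chr10:88826765-88826794, minus strand, E-box 37 bases after the start): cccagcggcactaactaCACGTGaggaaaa
Pno1 (chr11:17211540-17211569, minus strand, E-box 37 bases after the start): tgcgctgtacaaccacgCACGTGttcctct
Ltv1 (chr10:13193092-13193121, minus strand, E-box 28 bases after the start): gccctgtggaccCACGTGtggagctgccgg
Utp4 (chr8:106893643-106893672, plus strand, E-box 15 bases after the start): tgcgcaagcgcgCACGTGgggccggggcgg
Wdr43 (chr17:71616220-71616249, plus strand, E-box 17 bases after the start): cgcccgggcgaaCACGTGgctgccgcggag
Utp18 (chr11:93885769-93885798, minus strand, E-box 20 bases before the start): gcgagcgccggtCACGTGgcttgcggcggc
Tsr1 (chr11:74898092-74898121, plus strand, E-box 24 bases after the start): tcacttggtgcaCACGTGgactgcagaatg
Aatf (chr11:84513688-84513717, minus strand, E-box 204 bases before the start): gctccaagcggtCACGTGctccggcgcgct
Nol11 (chr11:107189407-107189436, minus strand, E-box 43 bases before the start): cttgagcgttcgCACGTGgtctagactcca
Wdr46 (chr17:33940699-33940728, plus strand, E-box 12 bases before the start): aagggagtttcgCACGTGgatcgttgttcg
Imp4 (chr1:34439696-34439725, plus strand, E-box 121 bases before the start): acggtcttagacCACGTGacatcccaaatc

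The genes shown span UTP-A (Utp4, Wdr43 and Nol11), UTP-B (Utp18), the MPP10 complex (Imp4), the pre-40S factors (Pno1, Ltv1 and Tsr1) and other processome proteins (Utp20, Aatf and Wdr46). Their log2 fold changes ran from 1.92 to 3.79 with a median of 2.74, against -0.09 to 4.01 with a median of 2.34 in the 26 members without an E-box in the window, which include Rrp9. These 26 also include Ngdn, Riok1, Utp3, Emg1 and Imp3, whose small changes lower that median. Of the 10 members with an estimate of at least 8-fold, Utp20 and Pno1 held an E-box and Rrp12 had no window. Rrp9, Pwp2, Bysl, Rcl1, Heatr1, Pdcd11 and Nop56, the rest of those 10, held none. A relation of the E-box to the size of change was not tested. Searched on both strands, the ETS motif CCGGAAG stood in 40.5% of member windows, against 17.9% of those of other tested genes, and the YY1 core ATGGCGG in 18.9%, against 7.92%. The NRF1 core TGCGCA was as frequent, in 13.5% against 13.9%, and the TATA box TATAAA stood in 5.41% against 6.86%. None of these motifs contains another, and the median GC content was 59.3% in member windows and 60.7% in those of other tested genes. These are matches of letters, not binding sites, and no test was made of their shares.

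**Figure D5:**
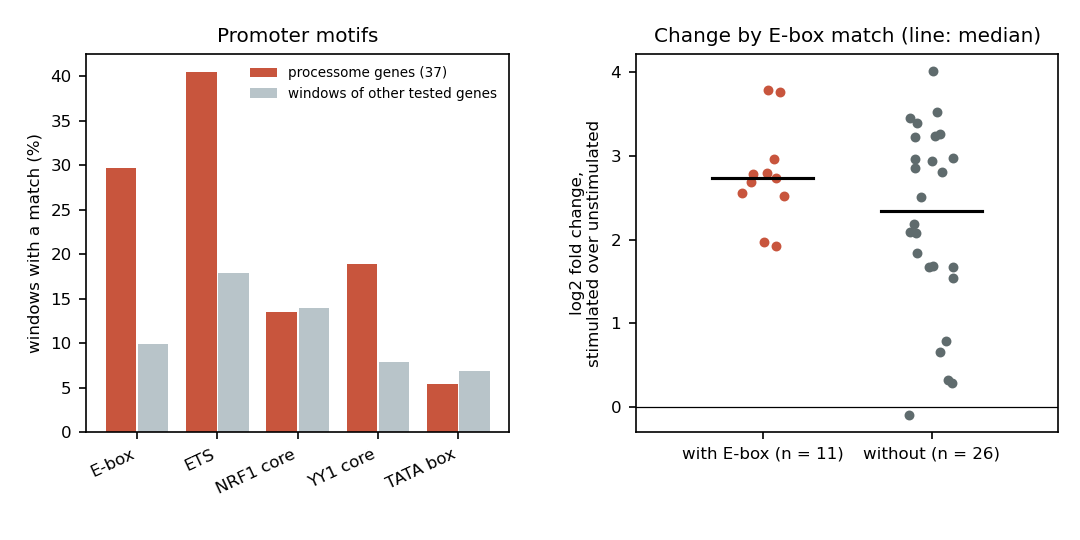
Share of promoter windows holding each motif (left, % of windows), for the 37 processome genes with a window (red) and for other tested genes (grey), and log2 fold change (stimulated over unstimulated) of members with and without an E-box, 1 point per gene with the median as a line (right). The E-box and ETS bars of the processome genes, 29.7% and 40.5%, are the ones farthest above those of other tested genes, and the 2 groups of members overlap in their fold changes.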

How the data were processed

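RNA sequencing counts of 6 libraries, 3 stimulated and 3 unstimulated, were used. The authors deposited raw counts of reads per Ensembl gene. The genome build GRCm38 and the tools HTSeq, STAR 2.5.2a and DESeq2 are named per the submitters' processing notes, and per the labels' protocols libraries were made with a TruSeq preparation from column-purified RNA. Not given in the sources used here are the annotation release, the strand setting and filters. No pair of libraries of a group agreed within counting noise (dispersion index of pairs 9.41 to 37.6, counting noise about 1).

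Counts were tested with edgeR 4.0.16 (R 4.3.3; TMM, filterByExpr, robust quasi-likelihood test, group as the only term, two-sided, Benjamini-Hochberg adjustment, threshold 0.05) over 13314 genes, and with glmTreat against an absolute log2 fold change of 1. SE came from the change and the F statistic. Symbols, lengths and coordinates came from GENCODE M21, which matched 48058 of the identifiers, and promoter windows from RefSeq. The gene lists and the 47 members were chosen with earlier results of these data known. Every member is named; values of all libraries are given for the largest and smallest change in each role group, for any member that did not rise, and for Fbl, Nop56, Nop58, Utp14a, Bysl and Nob1; in each related list the largest rise and deepest fall or smallest change, with Utp14b and Fbll1 as paralogs. Utp3, Dhx37 and the neighbouring genes were described further after their values were seen.

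As alternatives, fits used RLE normalization, library size alone, library sizes without the 20 most abundant genes, no filter, at least 1 CPM in 3 libraries, DESeq2 1.42.0, limma-voom (limma 3.58.1), an adjusted p of 0.01, the replicate number as a block, and leaving out each library in turn. On simulated counts of 13314 genes for stimulated over unstimulated, the pipeline recovered 72% of 100 genes changed by 1.5-fold and 91% of 100 changed by 2-fold, with 8 false calls, 4.68% of its calls. The simulation changed only 200 genes, as many up as down, whereas 38.4% of tested genes rose and 39.1% fell in the data. Its rates therefore need not hold for these data, and it does not examine the scaling. Tables and figures used Python 3.11.15 with pandas 2.3.3, numpy 2.4.6, scipy 1.17.1 and matplotlib 3.10.9.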

Additional observations from a re-analysis of the deposited data

How the results depend on the processing

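Of 644 combinations of a member with an alternative, 642 kept the direction and the side of the threshold, and 44 of the 46 genes did so throughout. The exceptions arose with library size alone as the scaling, which moved the median of all tested genes by -0.14 and changed the shares of all tested genes that rose and fell to 34.3% and 43.7%. There Ngdn fell by 0.23 (adjusted p = 0.0124; 0.0124 to 0.554 over its alternatives), the 1 member called down, Riok1 was at 0.15 (adjusted p = 0.0646; 0.00114 to 0.0646), so that 44 members rose, and the median of the members was 2.40. Without unstimulated replicate 1 that median was 2.62, and it was 2.51 to 2.62 over the fits that left out 1 library. In each of those fits 45 members rose and 41 passed 2-fold, while all tested genes gave 4844 to 5179 rises and 4952 to 5257 falls. With the longest transcript as the length, the median level was 59.7 RPKM in stimulated and 9.87 RPKM in unstimulated cells. The replicate numbers do not pair the samples by the labels, and deviations of same-numbered libraries correlated at 0.36, 0.08 and 0.38, each library correlating best with its own number. With the replicate block 45 members rose, 41 passed 2-fold, the median was 2.54, and all tested genes gave 5326 rises and 5516 falls. Depth does not limit the members, each of which had 339 or more reads in every library, but the SE reflects 3 libraries a group.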
